A study of Mus musculus with 6 samples.

Results

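The genes described here are the transcription factor gene Nfe2l2, which encodes NRF2, and 9 of its antioxidant and NADPH-supplying targets, Nqo1, Gclc, Gclm, Hmox1, Txnrd1, Srxn1, G6pdx, Taldo1 and Slc7a11. A gene was taken in when the accession of an array probe, without its version, was a RefSeq transcript of it. Of these 10 genes 9 had a probe, 1 each, out of 13971 named genes and 34967 mouse probes on the array, and Slc7a11 was not analysed here. RNA was taken from the livers of C57BL/6 mice aged 14 months. Wild-type mice gave 3 arrays, numbered 1, 2 and 4 in the labels. Mice in which the mouse metallothionein promoter drives human c-Src, a proto-oncogene that encodes a cytoplasmic tyrosine kinase, gave the other 3, numbered 1, 3 and 4. The metallothionein promoter responds to zinc, and the study states that zinc was usually not needed for expression and that no carcinogen was given. Neither the sex of the mice nor the presence of tumour in the sampled tissue is given in the labels. Arrays of wild-type sample 3 and transgenic sample 2 were left out by the study for low signal. The labels number the samples within each group and do not describe how the mice were bred or housed, so p-values measure the spread between these arrays.

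NRF2 is a basic leucine zipper protein that the adaptor KEAP1 and a cullin ubiquitin ligase keep at a low level. When oxidants or electrophiles modify KEAP1, NRF2 is no longer degraded, pairs with a small MAF protein and binds antioxidant response elements near its targets. In liver these targets make glutathione, reduce thioredoxin and quinones, break down heme and supply NADPH, and they are known for protecting hepatocytes from reactive metabolites. NRF2 is controlled largely at the protein level, so the Nfe2l2 transcript is not a direct reading of its activity.

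The core of the antioxidant response element, TGACNNNGC on either strand, was looked for in RefSeq promoter windows of assembly GRCm38.p6, which run from 250 bases before to 50 after a gene's start. Windows were given for 8 of the 10 genes, and Gclc and Hmox1 were without one. The core was present in a window of 5 of the 8 genes, against 14% of the 27025 genes in the table and 12.4% of all 32851 windows. Txnrd1 has 3 windows, of which 1 held it. The genes were listed as targets of NRF2, which binds this element, so the share is not independent of how they were chosen. The stretches before the start are shown as a description. Capitals mark the core in the gene's direction or, for Gclm, Txnrd1 and G6pdx, its reverse complement, and each stretch reads 5′ to 3′ along the gene's strand.
Nfe2l2, chr2:75704875-75704913, minus strand: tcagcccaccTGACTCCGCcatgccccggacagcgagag
Gclm, chr3:122245403-122245451, plus strand: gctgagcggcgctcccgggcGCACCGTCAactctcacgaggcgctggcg
Txnrd1, chr10:82859094-82859142, plus strand: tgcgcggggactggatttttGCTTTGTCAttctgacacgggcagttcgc
G6pdx, chrX:74428909-74428957, minus strand: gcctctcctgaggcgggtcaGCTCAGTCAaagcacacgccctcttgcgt
The first base of the marked letters lay 240 bases before the start in Nfe2l2, 134 in Gclm, 92 in Txnrd1 and 57 in G6pdx. Srxn1 held the core after its start. The related letters TGANTCA, a palindrome bound by AP-1 factors, were in 7.81% of all windows and in a window of 8.97% of all genes. Among the 8 genes they were in the Srxn1 window alone, at 102 and 45 bases before the start. A count of 1 of 8 is too small to be set apart from that share. Neither copy shared a base with the TGACNNNGC match. They are shown because Srxn1 had the largest group difference.
Srxn1 distal copy, chr2:152105402-152105448, plus strand: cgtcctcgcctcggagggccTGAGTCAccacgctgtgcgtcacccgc
Srxn1 proximal copy, chr2:152105459-152105505, plus strand: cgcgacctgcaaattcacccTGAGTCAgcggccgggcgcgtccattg
The windows of Nqo1, Taldo1 and Slc7a11 held neither set of letters. A match is a description of these letters and not evidence of binding.

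Signals are given as log2 intensity after quantile normalization between arrays, and differences are transgenic minus wild-type on that scale. The median probe signal before normalization was 53.8 to 93.4 on the wild-type and 94.8 to 117 on the transgenic arrays. The Src probe gave signals of 60.8, 127 and 104 in wild-type replicates 1, 2 and 4 and of 870, 437 and 277 in transgenic replicates 1, 3 and 4. Whether this mouse probe reads the human transcript is unknown, so it is not a full check of the labels. The mouse's own metallothionein gene Mt1 gave 629, 701 and 3075 in wild-type and 21577, 13732 and 18066 in transgenic livers. Mt2 gave 33.0, 26.1 and 60.4 against 2249, 940 and 1581. Neither passed (limma adjusted p = 0.69 and 0.35), and both were without overlap. What raised them, and their part in the NRF2 pathway values, was not tested. Transgenic replicate 4 stood apart from the other 5 arrays. Of 4 measured genes of the Y chromosome, Uty, Ddx3y and Eif2s3y were not above background on it, unlike on those 5, whereas Kdm5d read 9.03 on it, the highest of the 6 arrays, against 8.32 to 8.36 in wild-type livers. Liver genes with female-biased expression averaged 1.57, 1.13 and 4.68 above their wild-type mean on transgenic replicates 1, 3 and 4, and male-biased genes averaged -1.16, -0.64 and -2.78 from theirs, so all 3 transgenic arrays deviated the same way and replicate 4 the most. A probe was called above background when its signal exceeded a threshold of 33.0 to 50.6 set from bacterial control spots. Arrays also carried patches, areas where the median deviation of neighbouring spots from their means over the 6 arrays exceeded 0.5. These took in between 1.86% and 9.98% of probes. Of the 9 NRF2 pathway genes 4 had a spot in a patch on some array, as did 18% of all features.

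In transgenic against wild-type livers, the comparison meant to find genes downstream of Src, none of the 9 measured NRF2 pathway genes passed limma's test (0 of 9, Benjamini-Hochberg over 34175 features). Values were above 0 for 6 genes and below 0 for 3, with a median of 0.14, against a median of 0.02 over all features and 51.7% of features above 0. The range ran from -0.93 for G6pdx to 1.09 for Srxn1. All 9 genes were above background on all 6 arrays. Nqo1 read 104 to 150 and Srxn1 122 to 140 on the wild-type arrays before normalization, against thresholds of 33.0 to 44.2. Whether low signal affected their differences was not tested. At an adjusted p under 0.05 limma called 0% of all features, and at an unadjusted p under 0.05 it called 2424, or 7.09%, and 0 of the 9. The groups overlapped for each of the 9 genes, whereas they did not overlap for 16% of all features. Srxn1 and Nqo1 differed by over 1 on the log2 scale, as did 8.61% of all features and 3.17% of the 19254 features above background on 6 arrays. Without transgenic replicate 1 the median of the 9 genes was -0.17, and with median scaling in place of quantile normalization it was -0.02.

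**Figure D1:**
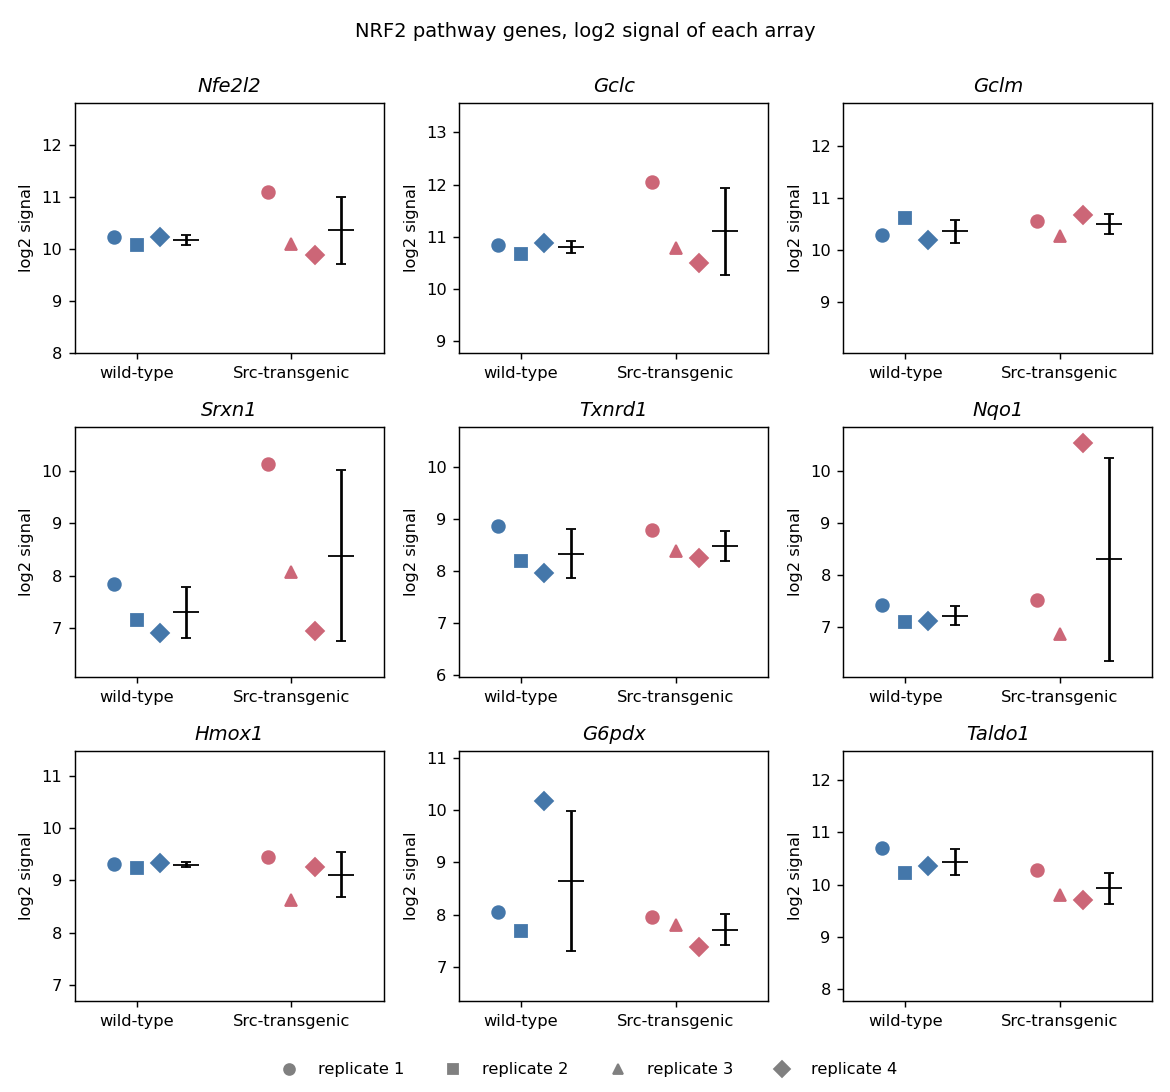
Log2 signal (vertical axis, a span of 4.8 in every panel) of 9 NRF2 pathway genes on 3 wild-type and 3 Src-transgenic arrays, with 1 point per array, its shape giving the replicate number, and the mean ± SD of each group beside the points. Single arrays lie far from the rest for Srxn1 (10.15 on transgenic replicate 1), Nqo1 (10.53 on transgenic replicate 4) and G6pdx (10.18 on wild-type replicate 4), while Gclm and Taldo1 are tightly grouped.

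**Figure D2:**
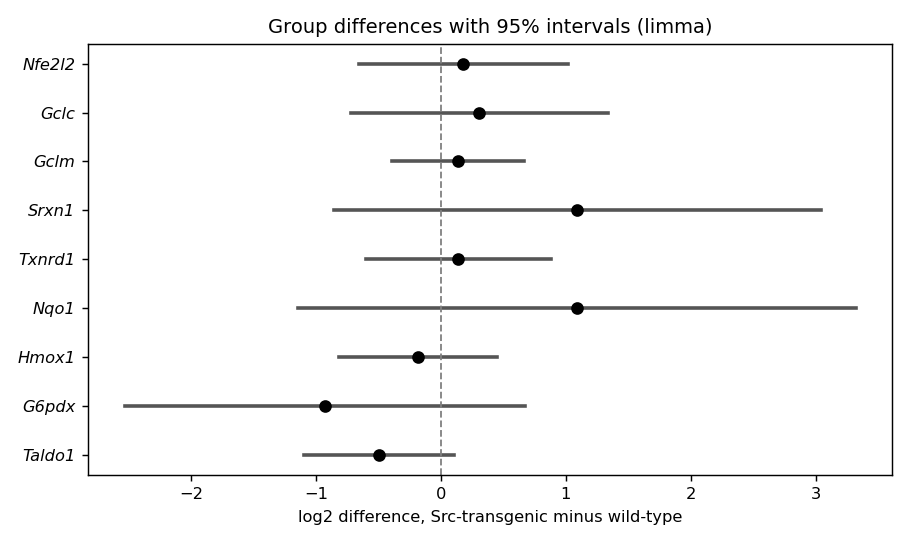
Difference of group means on the log2 scale (horizontal axis, Src-transgenic minus wild-type) for the 9 genes, with points for the estimate and lines for limma's 95% interval, 3 arrays per group. Every interval includes 0, and the interval is widest for Nqo1, from -1.15 to 3.32, and narrowest for Gclm, from -0.39 to 0.66.

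Nfe2l2 itself read 10.23, 10.07 and 10.24 in wild-type replicates 1, 2 and 4 and 11.09, 10.10 and 9.88 in transgenic replicates 1, 3 and 4. Transgenic replicate 1 was the highest of the 6 arrays and replicate 4 the lowest, so the transgenic arrays lay on both sides of the wild-type ones. The difference was 0.18 ± 0.35 (SE), with a 95% interval of -0.66 to 1.01 (limma adjusted p = 0.89). It was -0.19 without transgenic replicate 1 and -0.02 with median scaling. The SD was 0.10 among the wild-type arrays and 0.64 among the transgenic ones (n = 3 each).

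Since limma called 0% of all features, the count of 0 called in this and each later gene list follows from that and says nothing about the list. Of the 12 measured regulators and partners of NRF2, 0 were called, 7 values were above 0, and the median was 0.01. For 2 of these 12 genes the groups were without overlap, as for 16% of all features. Keap1, the adaptor that marks NRF2 for degradation, read 8.74, 8.31 and 8.28 in wild-type and 8.08, 7.92 and 8.24 in transgenic livers. Every transgenic array lay below every wild-type array for Keap1, with a difference of -0.36 ± 0.22 (SE) that did not pass (adjusted p = 0.71). Btrc, the substrate receptor of a ligase that acts on NRF2 without KEAP1, had -0.59 ± 0.25 and also did not overlap (adjusted p = 0.69). Bach1, a repressor at antioxidant response elements, had 0.40 ± 0.27, and the small MAF gene Mafk 0.50 ± 0.42, with 7.33 on transgenic replicate 1 against 5.56 to 6.38 on the other arrays.

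Gclc, the catalytic subunit of the ligase that makes the first bond of glutathione, read 10.85, 10.67 and 10.89 in wild-type and 12.06, 10.78 and 10.50 in transgenic livers. Transgenic replicate 1 stood 1.17 above the next array, 2.38-fold the wild-type mean, and replicates 3 and 4 lay in or below the wild-type range. The difference was 0.31 ± 0.42 (SE), with an interval of -0.72 to 1.34 (adjusted p = 0.84), and it was -0.17 without transgenic replicate 1. Gclm, the modifier subunit of the same enzyme, read 10.29, 10.61 and 10.19 in wild-type and 10.56, 10.28 and 10.66 in transgenic livers. It gave the narrowest interval of the 9, -0.39 to 0.66 around 0.14, or -0.08 with median scaling. On transgenic replicate 1, Gclm was 0.20 above its wild-type mean where Gclc was 1.25 above, so the subunits did not show the same deviation on that array.

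The other measured genes of glutathione synthesis and use gave 0 of 15 higher and 0 lower, with a median of 0.01. Gpx1, the main cytosolic glutathione peroxidase, read 14.17 to 14.19 on the transgenic arrays and 13.68 to 14.04 on the wild-type arrays, a difference of 0.35 ± 0.19 (SE, adjusted p = 0.70). Gsr, which regenerates reduced glutathione with NADPH, had -0.37 ± 0.31. Among the glutathione S-transferases, which couple glutathione to electrophiles, 0 of 19 passed in either direction, and the median was -0.12. Gstp1 read 14.76, 14.83 and 14.90 in wild-type and 14.68, 14.38 and 13.50 in transgenic livers, a difference of -0.64 ± 0.33 (adjusted p = 0.69), with its lowest value on transgenic replicate 4. Gsta3 had 0.35 ± 0.22 with groups that did not overlap, and Gstm5 had 0.99 ± 0.50 with groups that did. Members of these families are close paralogs that a probe may not separate.

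Srxn1 encodes sulfiredoxin, which repairs over-oxidized peroxiredoxins. It read 7.83, 7.15 and 6.90 in wild-type and 10.15, 8.08 and 6.93 in transgenic livers. Transgenic replicate 1 was 2.07 above the next array, 7.23-fold the wild-type mean, replicate 3 lay above the highest wild-type array, and replicate 4 lay within the wild-type range. The difference of 1.09 ± 0.81 (SE), or 2.13-fold, did not pass (interval -0.86 to 3.05, adjusted p = 0.74). It was 0.21 without transgenic replicate 1 and 1.83 without transgenic replicate 4. The Srxn1 spot lay in a bright patch on transgenic replicate 3, where subtracting the local deviation took it from 8.08 to 7.55, and in none on replicate 1, where it read 10.17 after the same step. Wild-type replicate 1 read 7.69 after it, so transgenic replicate 3 no longer lay above the highest wild-type array.

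Txnrd1, the cytosolic thioredoxin reductase, read 8.86, 8.19 and 7.96 in wild-type and 8.80, 8.38 and 8.25 in transgenic livers, so the transgenic arrays fell inside the wild-type range. The difference was 0.14 ± 0.31 (SE), with an interval of -0.60 to 0.88 (adjusted p = 0.90), and it was -0.24 after correction for local brightness, -0.05 without wild-type replicate 4 and -0.02 without transgenic replicate 1. Of 15 other measured genes of the thioredoxin and peroxiredoxin system 0 passed in either direction, with a median of -0.02. Txnip, the inhibitor of thioredoxin, had -0.63 ± 0.40, with 9.62 on transgenic replicate 1 against 10.67 to 11.45 on the other arrays. Sesn2, a stress-induced sestrin, read 6.99 to 7.22 in transgenic and 6.57 to 6.97 in wild-type livers, a difference of 0.26 ± 0.21 (adjusted p = 0.75).

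Nqo1, the quinone reductase often used as the readout of NRF2 in liver, read 7.43, 7.10 and 7.13 in wild-type and 7.52, 6.88 and 10.53 in transgenic livers. Transgenic replicate 4 alone was high, 9.89-fold the wild-type mean and 3.01 above the next array, and the other 5 arrays spanned 6.88 to 7.52. The difference of 1.09 ± 0.92 (SE) had an interval of -1.15 to 3.32 (adjusted p = 0.76) and was -0.02 without transgenic replicate 4. The spot lay in a bright patch on that array, with a local deviation of 0.82, and after this was subtracted it read 9.71, still 2.44 above the corrected wild-type mean. Transgenic replicate 4 is the array on which 1 of 4 Y-linked genes, Kdm5d, was above background and on which the female-biased mean was highest and the male-biased mean lowest. The part of these differences in the Nqo1 value was not tested.

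The remaining detoxification genes that respond to NRF2 in mouse liver gave 0 of 21 higher and 0 lower, 14 values above 0 and a median of 0.09. Abcc5, an efflux pump of the multidrug resistance protein family, read 6.86, 6.54 and 6.49 in wild-type and 7.16, 8.05 and 7.34 in transgenic livers. Its difference of 0.89 ± 0.29 (SE) was the only one of 108 measured genes of the pathway lists with an unadjusted p under 0.05, and it did not pass over all features (adjusted p = 0.69). Cbr3, a carbonyl reductase, was above background on transgenic replicate 1 alone, at 6.61 with its spot in a patch there, and no fold is given for it. Htatip2 had -0.26 ± 0.27 and Aldh1a1, a retinal and aldehyde dehydrogenase gene, 0.19 ± 0.21. The mean of this list was -0.08 from its wild-type mean on transgenic replicate 4, where Nqo1 was high, and 0.28 on replicate 1, where Srxn1 was.

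Hmox1, the inducible heme oxygenase, read 9.32, 9.24 and 9.33 in wild-type and 9.44, 8.63 and 9.26 in transgenic livers. The wild-type SD was 0.05, the smallest of the 9 genes, and transgenic replicate 3 was the lowest of the 6 arrays. The difference was -0.19 ± 0.26 (SE), with an interval of -0.82 to 0.44 (adjusted p = 0.84), and 0.05 without transgenic replicate 3. By the patch rule the spot lay in a patch on 4 arrays. The local deviation was 2.01 on wild-type replicate 4, -0.05 and 0.03 on wild-type replicates 1 and 2, and -0.56 to -0.73 on the 3 transgenic arrays. Deviations are taken from the mean of the 6 arrays, so the bright area on wild-type replicate 4 by itself lowers those of the other arrays. The transgenic values also lay below those of wild-type replicates 1 and 2, which that area lowers in the same way. What set them lower was not tested. Subtracting the local deviations turned the difference to 1.11 ± 0.58 (adjusted p = 0.64) and took wild-type replicate 4 from 9.33, beside its group, to 7.31, away from it. The direction of Hmox1 therefore depends on this step. Hmox1 is also a macrophage gene in liver, and in whole tissue more cells of a type and more RNA per cell cannot be told apart. The 8 of 12 Kupffer cell and macrophage markers with a probe were above background on every array. Their mean lay between -0.17 and 0.14 of the wild-type mean in wild-type livers and at -0.15, -0.30 and 0.64 in transgenic replicates 1, 3 and 4, and their part in the Hmox1 value was not tested.

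Of 10 other genes of heme, iron storage and bilirubin handling 0 passed in either direction, with a median of -0.01. Hmox2, the constitutive heme oxygenase, had -0.53 ± 0.27 (SE) and Por, the electron donor of heme oxygenase and of cytochromes P450, 0.59 ± 0.27, both with an adjusted p of 0.69. Ftl1, the ferritin light chain, had 0.25 ± 0.22, and Fech, which inserts iron into heme, -0.24 ± 0.18 with groups that did not overlap. Erythroid markers, which red cells in the tissue would bring, were represented by 5 of 9 genes, with Hba-a1 at 13.40 to 14.22 in wild-type and 13.91 to 14.50 in transgenic livers and Alas2 at 8.03 on transgenic replicate 4 against 10.63 to 10.94 elsewhere. Their part in the heme genes' values was not tested.

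**Figure D3:**
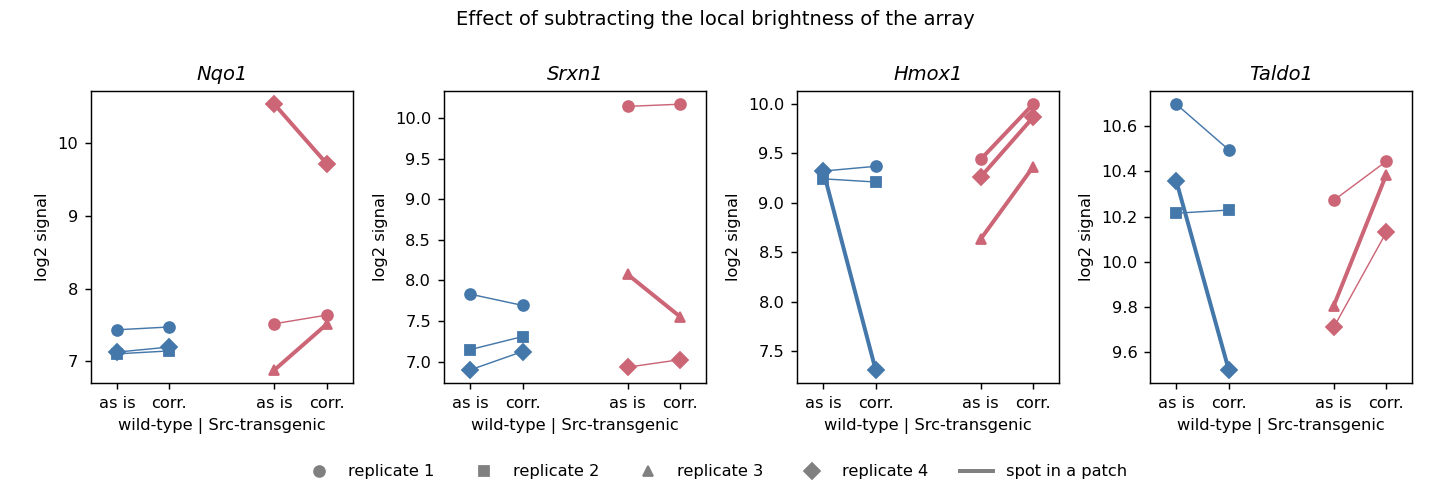
Log2 signal (vertical axis, scaled separately per panel) of the 4 genes with a spot in a patch on some array, before (as is) and after (corr.) subtraction of the local deviation, with 1 line per array and thick lines for arrays on which the spot lay in a patch. The wild-type replicate 4 value of Hmox1 moves from 9.33 to 7.31, whereas Nqo1 on transgenic replicate 4 and Srxn1 on transgenic replicate 1 stay the highest of their 6 arrays.

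G6pdx encodes the X-linked glucose-6-phosphate dehydrogenase, which opens the pentose phosphate pathway and yields NADPH. It read 8.05, 7.69 and 10.18 in wild-type and 7.96, 7.79 and 7.38 in transgenic livers. Wild-type replicate 4 alone was high, 2.13 above the next array, and the other 5 spanned 7.38 to 8.05. The difference of -0.93 ± 0.66 (SE) had an interval of -2.54 to 0.67 (adjusted p = 0.73) and was -0.16 without wild-type replicate 4. The G6pdx spot was outside patches on all arrays. Taldo1, the transaldolase of the same pathway, read 10.70, 10.21 and 10.36 in wild-type and 10.27, 9.80 and 9.71 in transgenic livers. It had the smallest p of the 9 genes, with a difference of -0.50 ± 0.25 (interval -1.10 to 0.10, adjusted p = 0.69), and 13.0% of all features had a p as small. Its spot lay in a patch on wild-type replicate 4 and transgenic replicate 3, and after local correction the difference was 0.24.

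The other measured genes of NADPH supply gave 0 of 10 higher and 0 lower, and a median of 0.05. Me1, the cytosolic malic enzyme, read 10.86 on transgenic replicate 1 and 9.42 to 10.02 elsewhere, a difference of 0.46 ± 0.40 (SE). Idh1, the cytosolic isocitrate dehydrogenase, had 0.30 ± 0.22. H6pd, the dehydrogenase of the endoplasmic reticulum, read 14.14 on wild-type replicate 4 against 11.24 to 11.39 on the other 5 arrays, with its spot in a patch there, and had -0.90 ± 0.79. H6pd and G6pdx were therefore high on the same wild-type array, the latter outside any patch. Superoxide and peroxide removal, with the cytosolic superoxide dismutase gene Sod1 at 0.07 ± 0.18, gave 0 of 7 in either direction and a median of -0.04.

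Several of the genes were high on a single array. For 4 of the 9 genes 1 array exceeded each of the other 5 by over 1 on the log2 scale, Gclc and Srxn1 on transgenic replicate 1, Nqo1 on transgenic replicate 4 and G6pdx on wild-type replicate 4. The same held for 6.59% of features above background on 6 arrays and for 6 of the 108 genes of the pathway lists (5.56%). This measure was chosen after the values were seen. Among those 6, named for the same reason, Maff read 10.43 on transgenic replicate 4 and at most 4.47 elsewhere, with its spot in a patch. Maff was above background on that array alone, so the size of its gap is not known. Gstt2 read 9.05 on the same array against at most 5.62, outside a patch, and was above background on 3 arrays. The spread within groups was above the median of comparable features for 7 of the 9 genes, and Nqo1, Srxn1 and G6pdx stood at the 98.3, 97.4 and 95.9 percentiles. Transgenic replicate 1 was the highest array for 4 of the 9, Nfe2l2, Gclc, Hmox1 and Srxn1, as it was for 23.1% of the pathway genes and 16.9% of features.

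**Figure D4:**
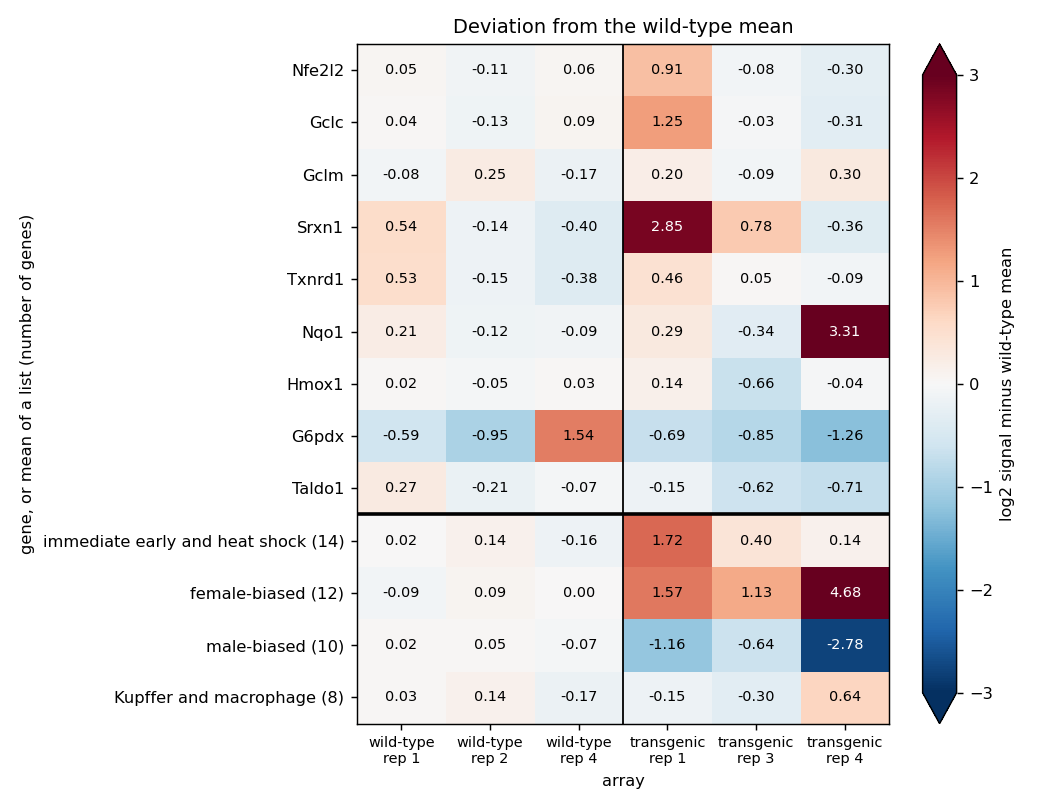
Log2 signal minus the wild-type mean (colour and printed value) for the 9 genes (rows above the line) and the means of 4 gene lists (rows below it), by array (columns). Transgenic replicate 1 holds the highest Srxn1 (2.85), Gclc (1.25) and Nfe2l2 (0.91) together with the highest immediate early and heat shock mean (1.72), and transgenic replicate 4 holds the highest Nqo1 (3.31) together with the highest female-biased mean (4.68).

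Other stress genes were high on the array that was high for Nfe2l2, Gclc and Srxn1. The 14 measured immediate early and heat shock genes averaged 1.72, 0.40 and 0.14 above their wild-type mean on transgenic replicates 1, 3 and 4, where wild-type arrays ran from -0.16 to 0.14, and 0 of 14 passed in either direction. At an unadjusted p under 0.05 limma called 4 of these 14 genes, against 7.09% of all features, and 4 of 14 were without overlap, against 16%. Dnajb1, a heat shock cochaperone gene, read 12.51, 10.77 and 9.74 on transgenic replicates 1, 3 and 4 and 8.56 to 8.84 in wild-type livers. It was thus higher on every transgenic array, and most so on replicate 1. ATF4 is a stress factor that also acts on amino acid transport and glutathione precursors. Its 14 measured targets averaged 0.41, 0.01 and -0.12 from their wild-type mean on transgenic replicates 1, 3 and 4, and -0.32 to 0.17 on the wild-type arrays. Of their 14 differences 8 were above 0 and 6 below, and 9 of the genes were above background on all 6 arrays. Ddit3, the gene of the stress factor CHOP, read 10.88, 10.25 and 8.67 in transgenic and 8.64 to 9.09 in wild-type livers, a difference of 1.07 ± 0.56 (SE, adjusted p = 0.69). Srxn1 followed the same order of transgenic arrays as the heat shock mean, and whether these genes share in its values was not tested.

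The 5 named genes whose 6 values were most like those of Srxn1 by Pearson's r were Tubb6 (0.999), Fam13b (0.996), Crem (0.995), Tgfb3 (0.995) and Apoa4 (0.994), with a Spearman's rho of 0.943 for each. They share arrays and normalization with Srxn1, and 122 named genes had an r over 0.9, so the likeness is a description. Without transgenic replicate 1, r over 5 arrays was 0.962 to 0.995.

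Markers of the cells in the tissue varied beside these values. Hepatocyte markers had a median difference of -0.03 over 9 genes and list means within 0.07 of wild-type on each array, and all 9 were above background on all 6 arrays. Lymphocyte markers had a median of -0.43 over 9 genes, with 6 values below 0 and 3 above, 2 of 9 at an unadjusted p under 0.05 (7.09% of all features) and 3 of 9 without overlap (16% of all features). Among them Cd3g had -0.74 ± 0.29 (SE) and Nkg7 -0.56 ± 0.22, both without overlap. Ms4a1 had -1.88 ± 0.88, but it was above background on 1 array of each group and had a spot in a patch on 3 arrays. Cd3e had 1.01 ± 0.61, but it was above background on 1 transgenic array alone and had a spot in a patch on 1 array. Cd79a, named as the remaining gene without overlap, had 0.56 ± 0.37. Endothelial markers had a median of -0.18 over 7. Cholangiocyte and progenitor markers had 0.29 over 7, neutrophil markers -0.05 over 8, and stellate cell and matrix genes -0.16 over 9. Pericentral hepatocyte genes had a median of -0.08 over 7 genes and periportal genes -0.03 over 8. Their part in the values of the NRF2 pathway genes was not tested.

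**Figure D5:**
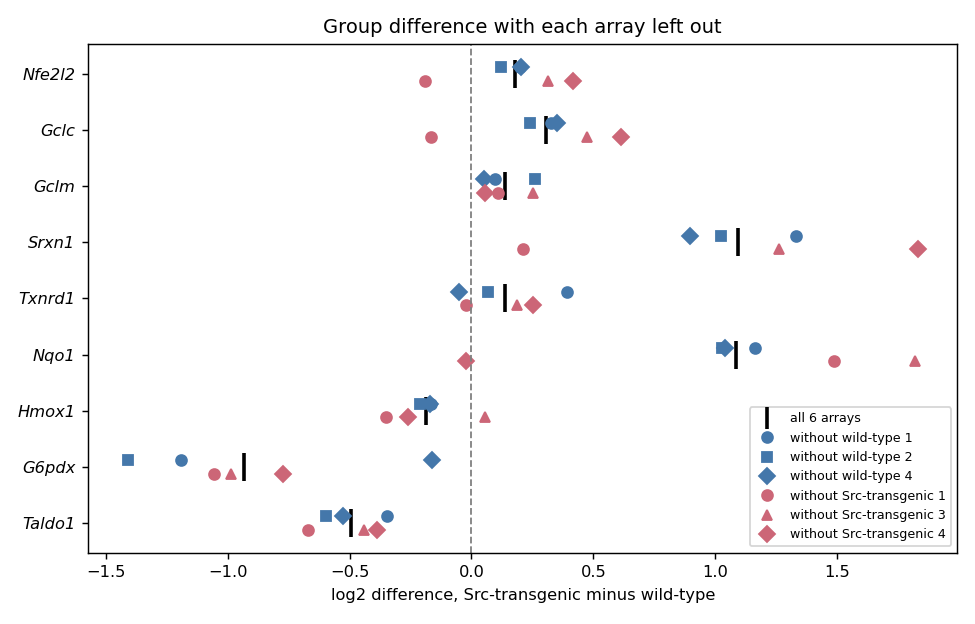
Difference of group means on the log2 scale (horizontal axis) for each of the 9 genes with all 6 arrays (black bar) and with each array left out (blue for wild-type, red for Src-transgenic, shape for the replicate number). Leaving out transgenic replicate 1 brings Srxn1 to 0.21 and Gclc to -0.17, leaving out transgenic replicate 4 brings Nqo1 to -0.02, and leaving out wild-type replicate 4 brings G6pdx to -0.16.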

How the data were processed

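Per the labels' protocols, RNA of 6 livers was amplified to cRNA carrying biotin and read in 1 colour through an Alexa-647 streptavidin stain. Per the file headers, the deposited intensity is a spot's signal less background, and the authors' value table holds that signal divided by 1 constant per array, on a linear scale. The sources used here do not name the scanner. The 620 bacterial control spots were left out. Signals under an array's 1st percentile of positive values were raised to it, and log2 values were quantile normalized. Accessions named 14763 probes to 13971 genes (RefSeq, GRCm38.p6), and 20204 probes stayed unnamed. The probe with the highest mean stood for a gene. The background threshold of an array was set at 3 scaled median absolute deviations over the median of 570 control spots. A patch was where the median deviation of spots within 4 rows and columns exceeded 0.5 in either direction. A spot's deviation was its log2 signal less its mean over the 6 arrays.

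The test was limma's (version 3.58.1, R 4.3.3; lmFit, then eBayes), two-sided, without weights or covariates, and p-values were adjusted by Benjamini-Hochberg over 34175 features with a threshold of 0.05. SE and 95% intervals are limma's moderated ones, and SD is over 3 arrays. The number of arrays limits the precision. The steps were tested on simulated data. The genes, the 23 gene lists and the background rule were chosen with earlier results of these data known. Besides the 9 measured genes, Src, Mt1 and Mt2, the rule named up to 4 genes of each list with the smallest p. It also named the 5 genes most like the member with the largest difference. Lists are described by counts and medians. Alternatives were other offsets, floors, scalings, filters, probe rules, spread models, array weights, corrections for patches, the replicate number as a block and each array left out. Figures were drawn with matplotlib 3.10.9.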

Additional observations from a re-analysis of the deposited data

How the results depend on the processing

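None of the 9 genes was called under any of the 20 alternatives that gave it a value, each array left out included. Over all features the count called was 0 to 1 with an array left out (1 without wild-type replicate 1 and 1 without transgenic replicate 4) and 1 when every probe was tested separately. The median of the 9 differences ran from -0.17 to 0.25 with an array left out, the lowest without transgenic replicate 1. Median scaling turned Nfe2l2 to -0.0213 and Gclm to -0.0767, the authors' scaled values turned them to -0.0209 and -0.0763, and both moved the median of all features to -0.08. They also took the higher share of features with an unadjusted p under 0.05 from 61.6% to 41.8% and 41.9%. Correction for local brightness turned Hmox1 to 1.11, Txnrd1 to -0.24 and Taldo1 to 0.24. With an array left out, Nfe2l2 ran from -0.19 to 0.42, Gclc from -0.17 to 0.62, Txnrd1 from -0.0519 to 0.39, Hmox1 from -0.35 to 0.0544 and Nqo1 from -0.0216 to 1.82. Srxn1, G6pdx and, apart from local correction, Taldo1 kept their sign in every alternative that gave a value. Causes were not tested. Leaving out features in a patch gave values for 5 of the 9 genes, and none for Nqo1, Hmox1, Srxn1 and Taldo1. The groups share the replicate numbers 1 and 4, which the labels do not tie to a litter or day, and the deviations of same-numbered arrays correlated at 0.06 for each number. With the replicate number as a block, 0 features were called, 1348 had an unadjusted p under 0.05, the median of the 9 genes was 0.25 and Hmox1 turned to 0.0264. In that fit the differences rest on the arrays numbered 1 and 4 alone. Wild-type replicate 2 and transgenic replicate 3 have no same-numbered array in the other group. The number of arrays limits all comparisons, and the 9 genes were above background on every array.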
